A study of Mus musculus with 12 samples.

Results

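Ribosomes are assembled from RNA and protein in the nucleolus, and 57 mouse genes that encode factors of this process were described here. They were chosen by name, as a list of nucleolar ribosome assembly factors, with earlier results of these data known. Shares of the list set beside those of all genes are therefore descriptions and not tests. The list was sorted into 5 groups: RNA polymerase I and its regulators (7 genes), the small nucleolar ribonucleoproteins or snoRNPs (8), small-subunit factors (18), large-subunit factors (20) and multifunctional nucleolar proteins (4). A probe set that names 1 gene alone was found for 56 of the 57, and all 56 passed the filter on dim probe sets, so they make up 56 of the 10817 genes tested. Every one of the 56 stayed above the filter level of 16 intensity units on all 12 arrays, with readings from 25.04 units for Polr1b to 22926 for Npm1. The remaining gene, Mrto4, which encodes a large-subunit factor, was on the array only as a probe set shared by 3 genes (1356 to 3309 units) and was not analysed here.

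RNA was measured in leukaemic stem cells of 2 mouse leukaemias, with 3 arrays for each of 4 groups. De novo acute myelogenous leukaemia (AML) was started by infecting stem and progenitor cells (KLS) with MLL-AF9 and was sampled as Lin-Sca1-ckit+ cells. The other leukaemia, the blast crisis of chronic myelogenous leukaemia (bcCML), was started with BCR-ABL/NUP98-HOXA9 and sampled as Lin- cells. In each leukaemia the donor cells were either wild-type or Msi2 Gt/Gt, that is, with both copies of Msi2 interrupted by a gene trap. Msi2 codes for Musashi2, a protein that binds RNA. All 12 samples carry the strain label B6;CB-Msi2Gt(pU-21T)2Imeg, the wild-type ones included, and no sample was treated. The trap was in the donor cells before infection, so its presence at the start of the disease and its presence in the established leukaemia cannot be told apart. The leukaemias differ in oncogene and in sort gate, and these cannot be told apart either. The age of the mice was not given in the sources used here, and the titles call the 3 samples of a group biological replicates.

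Ribosome assembly begins when RNA polymerase I copies the ribosomal DNA into a long precursor. SnoRNPs modify and help fold that precursor, a large U3-containing particle called the small-subunit processome shapes the small subunit, and a separate series of helicases, GTPases and scaffold proteins shapes the large one. The genes for these factors are known to be expressed strongly in growing blood progenitors and in leukaemia cells, and the transcription factor Myc is a known activator of many of them.

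The measured quantity is array intensity on a linear scale, and differences are log2 differences with their standard error (SE) from limma, fitted to 4 group means over 10817 genes with Benjamini-Hochberg adjustment and a threshold of 0.05. The trapped gene, Msi2, fell in both leukaemias, with -2.11 ± 0.34 in AML (adjusted p = 0.0211 in limma) and -2.63 ± 0.34 in bcCML (adjusted p = 0.0200 in limma). Median intensities of the 12 arrays lay between 13.1 and 13.8, and replicates of a group correlated at 0.938 to 0.981. The first principal component held 76.2% of the variance and separated the leukaemias. On the second, with 4.90%, mutant AML array 1 stood apart from the other arrays at 58.2, where they lay between -20.0 and 31.9, so the AML counts over the members and the genes called in AML are also given without it. Kit was read on all arrays, between 78.2 and 546 units. Of the 5 progenitor-gate genes on the array, Kit among them, 0 were called in AML, with 3 at an unadjusted p under 0.05 in limma. Between the mutant leukaemias 1 of the 5 was called lower and 1 higher in bcCML. In both AML groups and in wild-type bcCML 7 of the 8 T and NK cell markers on the array, Cd3e, Cd3d and Cd3g among them, stayed below the filter level, as did 6 of the 8 in mutant bcCML.

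The ribosome assembly genes were lower in mutant than in wild-type AML almost without exception in sign, but few passed the test one by one. Rrp12 and Polr1e fell in AML, which is 2 of 56 members (3.57%) where 1.14% of all genes tested were called lower. The log2 difference was below 0 for 55 of the 56 members against 57.1% of all genes, the exception being Utp18, and the median was -0.36 over the members against -0.05 over all genes. All 3 mutant AML arrays lay below all 3 wild-type arrays for 35 members (62.5%), against 11.6% of all genes. At an unadjusted p under 0.05 in limma, 28 members (50.0%) were lower, against 10% of all genes. Without mutant AML array 1 the median was -0.36, 54 estimates were below 0 (60.7% of all genes), 36 members did not overlap (23.1% of all genes), 24 were lower at an unadjusted p under 0.05 (11.4% of all genes) and 1 passed, Polr1e. RNA of a sorted population was measured, so fewer cells of a type and less RNA per cell cannot be told apart. The summed intensity of the 9 neutrophil markers on the array ran from 98858 to 128753 on the wild-type AML arrays and from 160855 to 194569 on the mutant ones, higher there with no overlap. The 8 T and NK cell markers summed to 1519.6 to 5055 and 5234 to 8064 units, also higher in the mutant with no overlap, nearly all of it from Nkg7, a granule protein of cytotoxic cells (1.27 ± 0.36, adjusted p = 0.131 in limma, with an unadjusted p of 0.00557). The part of either list in the members' values was not tested.

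In bcCML no member passed the test, where 0.139% of all genes did. An unadjusted p under 0.05 in limma was reached by 6 members (10.7%, against 8.32% of all genes), which is near the background. Of these, Polr1b, Nop14, Pes1, Wdr12 and Ebna1bp2 were lower and Utp18 higher. The difference was negative for 41 members and positive for 15, against 54% negative over all genes, with a median of -0.10 against -0.02. Without mutant bcCML array 2 that median was -0.19, and without mutant bcCML array 1 it was -0.03 and without array 3 it was -0.06. The arrays did not overlap for 7 members lower in the mutant (12.5%, against 10.1% of all genes) and for 2 members higher, Utp18 and Bysl (3.57%, against 5.83%). The mean of both Msi2 differences was called for 0 members, against 0.471% of all genes, with 24 members at an unadjusted p under 0.05 in limma (42.9%, against 13.7% of all genes).

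Whether the Msi2 difference differed between the leukaemias was tested directly, as the bcCML difference minus the AML difference. It was called for 0 members and 0 of all genes tested (0%). At an unadjusted p under 0.05 in limma, 9 members (16.1%) had a more positive difference in bcCML and 0 a more negative one, against 5.4% of all genes in that direction. These were Polr1e, Nolc1, Wdr75, Rrp12, Bysl, Tsr1, Bop1, Nop2 and Gnl3. The estimate was positive for 50 of 56 members, against 53.5% of all genes, with a median of 0.30 against 0.03. The AML and bcCML differences use separate arrays, so the values of each step can be set side by side, but no member's difference between leukaemias passed the test.

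**Figure D1:**
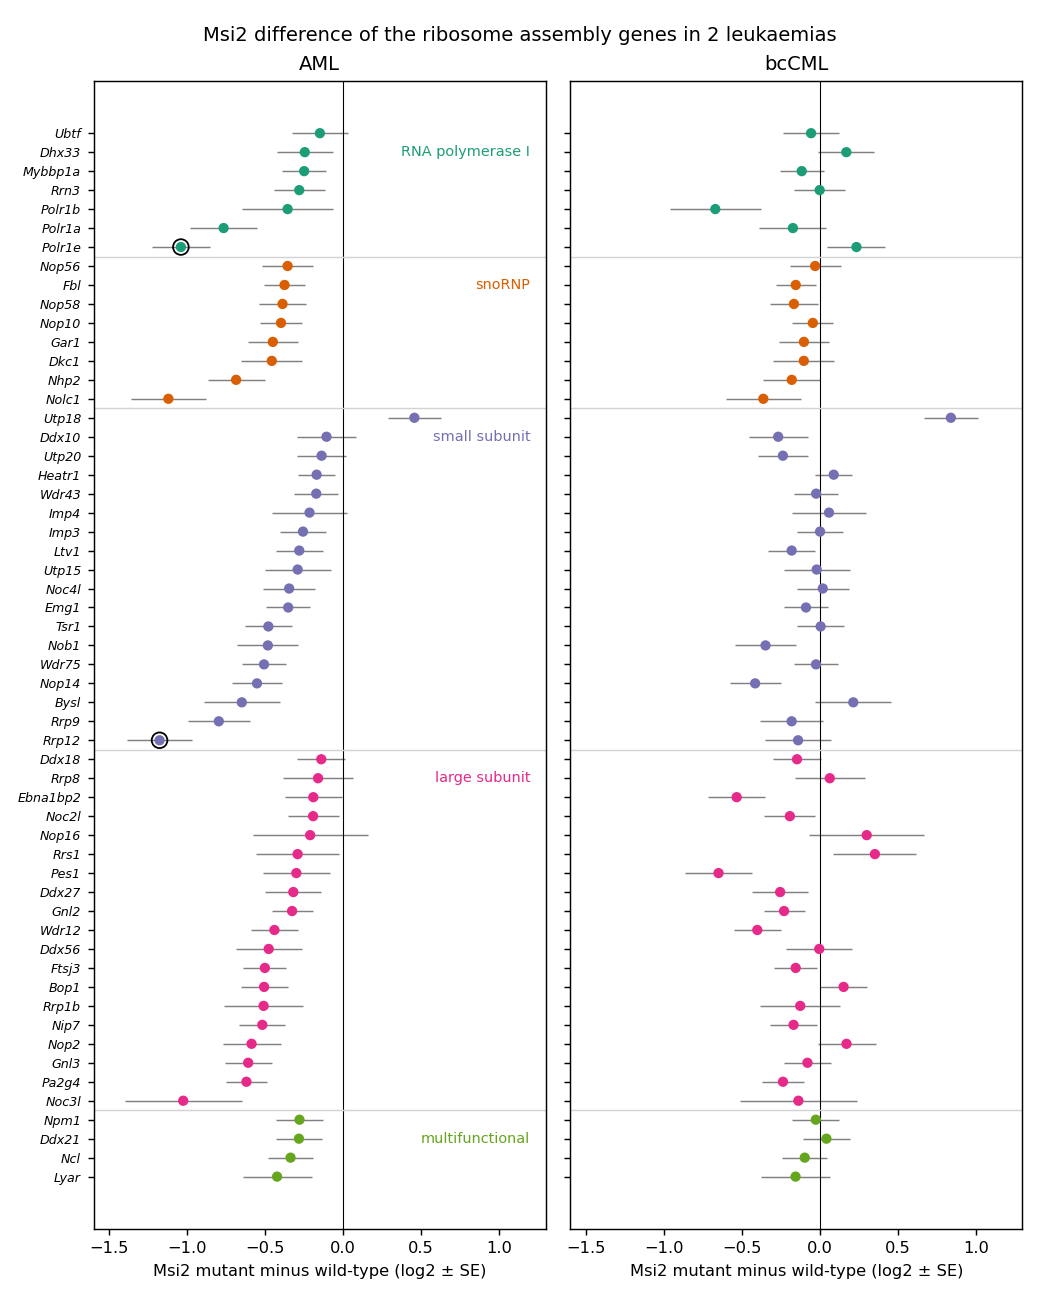
Msi2 mutant minus wild-type log2 difference (points) with its standard error (bars) for 56 ribosome assembly genes in AML (left) and bcCML (right), coloured and ordered by step, with 3 arrays per group; circled points passed the adjusted threshold. In AML 55 of 56 points lie left of 0 and Rrp12 and Polr1e are circled, whereas in bcCML 41 lie left of 0 and none is circled.

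Between the leukaemias, the ribosome assembly genes were higher in bcCML than in AML. With wild-type donors 33 members rose (58.9%) and 0 fell, where 17.7% of all genes were called higher and 19.3% lower, and all 56 estimates were positive against 50.3% of all genes. The median was 0.57 against 0.00 over all genes, from 0.09 for Bop1 to 1.54 for Nob1, and for 44 members all bcCML arrays lay above all AML arrays, against 25.6% of all genes. With Msi2 mutant donors 51 members rose (91.1%) and 0 fell, where 23.2% of all genes were called higher and 21.9% lower, and 55 estimates were positive against 51.9% of all genes. The median was 0.85 against 0.03, with Polr1e highest at 2.22 and Pes1 alone below 0 at -0.02, and 50 members did not overlap between the groups, against 29% of all genes. The members not called there were Ubtf, Pes1, Wdr12, Nop16 and Ebna1bp2. The wild-type and mutant comparisons of the leukaemias use the same arrays as the Msi2 comparisons, so they are not independent of them. The neutrophil markers summed to 6097 to 18099 units in wild-type bcCML and 2626 to 10390 in mutant bcCML, below all AML arrays. Nkg7 was higher in bcCML with wild-type donors (1.55 ± 0.36, adjusted p = 0.00740 in limma) and had 0.46 ± 0.36 with mutant donors (adjusted p = 0.332 in limma), and the T and NK cell markers summed to 7652 to 8947 units in wild-type and 8651 to 10688 in mutant bcCML. The part of either list in the members' higher values was not tested.

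**Figure D2:**
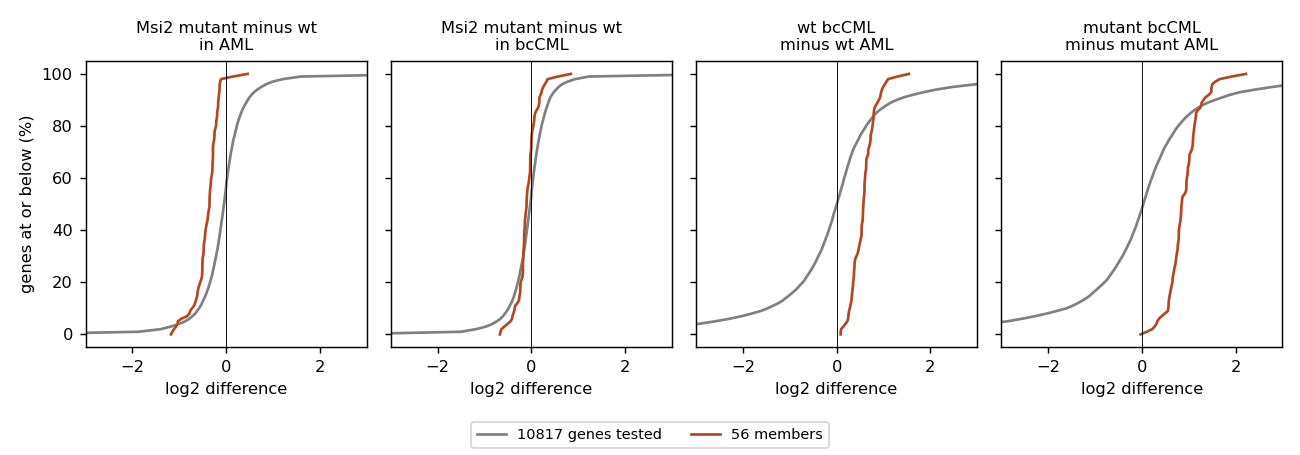
Percentage of genes (vertical axis) with a log2 difference at or below the value on the horizontal axis, for the 10817 genes tested (grey) and the 56 members (red), in 4 comparisons; the horizontal axis ends at -3 and 3. In AML the members' curve is shifted left of all genes (medians -0.36 and -0.05), in bcCML the curves lie closer (-0.10 and -0.02), and between the leukaemias the members' curves are shifted right (0.57 with wild-type and 0.85 with mutant donors).

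The 4 group means of a member usually had one order. For 39 of the 56 members (69.6%) the order from low to high was mutant AML, wild-type AML, mutant bcCML, wild-type bcCML, an order that 14.6% of all genes had. A further 14 members (25%, against 11.3% of all genes), among them Polr1e, Bysl, Tsr1 and Nop2, differed only in that mutant bcCML was above wild-type bcCML. Utp18, Wdr12 and Pes1 each had an order of their own. The wild-type and mutant means of a leukaemia were mostly not told apart by the test, which called 2 members in AML and none in bcCML. Arrays of the 2 AML groups still did not overlap for 35 members, lower in the mutant (62.5%, against 11.6% of all genes).

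The arrays within a group were not alike. Averaged over all 56 members as a deviation from each gene's mean over 12 arrays, the wild-type AML arrays stood at -0.08, -0.15 and -0.27 on the log2 scale and the mutant AML arrays at -0.67, -0.62 and -0.44. The wild-type bcCML arrays stood at 0.39, 0.44 and 0.42 and the mutant bcCML arrays at 0.20, 0.49 and 0.28. The AML groups therefore did not overlap, whereas mutant bcCML array 2 lay above all wild-type bcCML arrays and the other two below them. By step, the RNA polymerase I genes had the widest gap between the nearest AML arrays, -0.26 for wild-type array 3 against -0.58 for mutant array 3, and the multifunctional proteins the narrowest, -0.30 against -0.39.

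**Figure D3:**
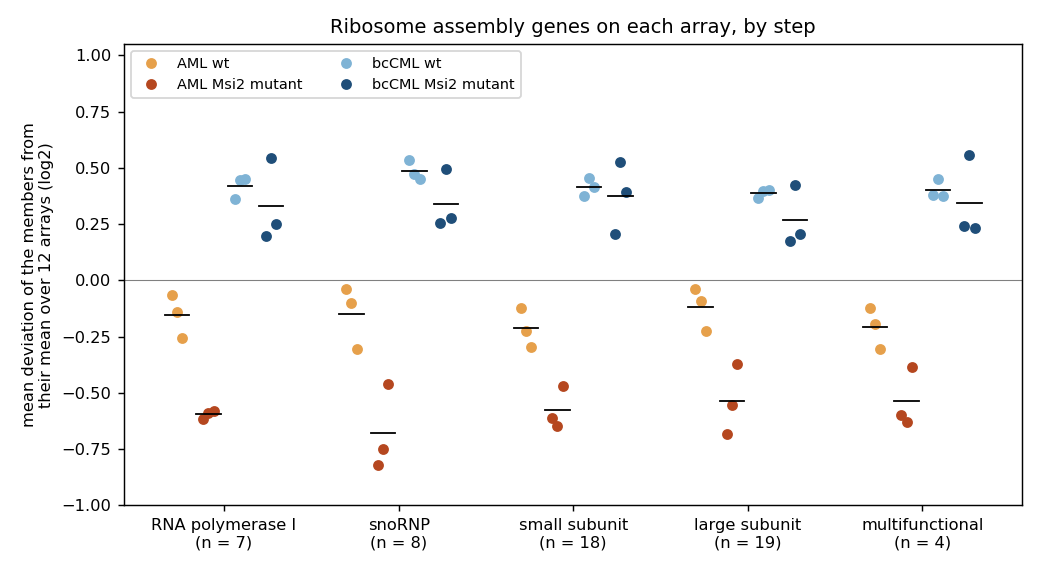
Mean log2 deviation of the members from their own mean over 12 arrays, 1 point per array, by step and group; black lines are group means over 3 arrays and n is the number of genes. In each of the 5 steps the mutant AML arrays lie below the wild-type AML arrays and both below every bcCML array, while the bcCML groups overlap.

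RNA polymerase I genes were led by Polr1e. It encodes a subunit that takes part in the start of transcription, and it fell in mutant AML. Its intensity was 719, 669.7 and 787 on the wild-type AML arrays and 275, 373 and 425 on the mutant AML arrays, and 1161, 1458 and 1603 and 1494, 1697 and 1744 on the wild-type and mutant bcCML arrays. The mutant AML arrays were all lower than the wild-type AML arrays, and both sets lay below all bcCML arrays. The log2 difference was -1.04 ± 0.19 in AML (2.06-fold lower, adjusted p = 0.0290 in limma) and 0.23 ± 0.19 in bcCML (adjusted p = 0.799 in limma), and the difference between these, 1.28 ± 0.26, had an adjusted p of 0.138 in limma. The AML call was lost without wild-type AML array 1 (adjusted p = 0.103 in limma), wild-type AML array 3 (0.0606), mutant AML array 2 (0.0547) or mutant bcCML array 3 (0.0514), and with arrays centred on their median (0.0549). It held without mutant AML array 1 (-0.86 ± 0.17, adjusted p = 0.0427 in limma). A second probe set of Polr1e gave -1.11 in AML and 0.20 in bcCML.

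Polr1e lies on chromosome 4, and the stretch before its start is shown because it is the member with the largest rise between the leukaemias with mutant donors. The 150 bases before its RefSeq start site (GRCm38.p6, chr4:45018459-45018608, plus strand) have a GC box, the letters GGGCGG on either strand, in capitals.
Polr1e: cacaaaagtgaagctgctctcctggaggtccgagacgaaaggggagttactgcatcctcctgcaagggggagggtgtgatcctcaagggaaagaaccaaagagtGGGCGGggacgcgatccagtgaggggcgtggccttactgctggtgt

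The other RNA polymerase I genes had smaller AML differences. Polr1a, the largest catalytic subunit, read 276, 242 and 394 in wild-type and 216, 175 and 141 in mutant AML, with no overlap and a log2 difference of -0.77 ± 0.22 (adjusted p = 0.123 in limma). Polr1b, the second catalytic subunit, was the member with the lowest bcCML difference, -0.67 ± 0.29 (adjusted p = 0.585 in limma), from 92.1, 93.3 and 86.7 units to 51.4, 75.7 and 47.5. Its wild-type AML arrays spread from 25.04 to 58.0 units, around the mutant AML readings of 30.9 to 34.5. Rrn3, which recruits the polymerase to its promoter, Ubtf, which binds ribosomal DNA, Mybbp1a, a nucleolar transcription regulator, and Dhx33, a helicase of the same step, had AML differences between -0.28 and -0.15, and none was called. With wild-type donors Polr1b, Polr1e, Mybbp1a and Dhx33 rose in bcCML relative to AML, 4 of 7 genes (57.1%, against 17.7% of all genes). Mybbp1a read 3681, 3200.4 and 3618 on wild-type AML and 5986, 5646 and 5493 on wild-type bcCML arrays, a log2 difference of 0.71 ± 0.14 (adjusted p = 0.00289 in limma). Probe sets of Polr1a disagreed there, since another of them gave -0.07 and -0.30 in the wild-type and mutant comparisons where the brightest gave 0.18 and 0.77.

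Genes of the snoRNPs had AML estimates below 0 for all 8 members, with a median of -0.42, and none passed the test there or in bcCML. Box C/D particles place methyl groups and are built on Fbl, the methyltransferase, with Nop56 and Nop58 as scaffold. Box H/ACA particles make pseudouridine and hold Dkc1, the catalytic subunit, with Gar1, Nhp2 and Nop10. Nolc1 is a chaperone that binds both kinds of particle and had the largest AML difference of the step. It read 1674, 1577 and 1677 units on the wild-type AML arrays, 528, 781 and 1042 on the mutant AML arrays, 3446, 2333 and 2489 on the wild-type bcCML arrays and 2025, 2399 and 1938 on the mutant bcCML arrays. The AML groups did not overlap, and the bcCML groups did. The log2 difference in AML was -1.12 ± 0.24 (adjusted p = 0.0528 in limma), which passed without mutant AML array 3 (adjusted p = 0.0245 in limma) and not without mutant AML array 1 (0.0755), and in bcCML it was -0.36 ± 0.24. The other probe sets of Nolc1 gave -0.95 and -1.04 in AML and 0.13 and -0.29 in bcCML.

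Nolc1 rose by 1.48 ± 0.24 in bcCML relative to AML with mutant donors (adjusted p = 0.000636 in limma), the largest value of its step. Its 150 bases before the RefSeq start site (GRCm38.p6, chr19:46075697-46075846, plus strand), shown for that reason, hold a GC box on each strand, in capitals.
Nolc1: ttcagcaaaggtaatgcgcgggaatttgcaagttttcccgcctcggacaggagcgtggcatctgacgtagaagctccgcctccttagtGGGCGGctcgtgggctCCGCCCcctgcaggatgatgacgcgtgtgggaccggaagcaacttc

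Nhp2 read 2411, 2145 and 1874 in wild-type and 1283, 1185 and 1529 in mutant AML, without overlap (-0.69 ± 0.18, adjusted p = 0.108 in limma). Among the box C/D genes, Fbl read 6029, 5861 and 4607 against 4250.4, 4250.0 and 4124 in AML (-0.38 ± 0.13) and 8587, 8223 and 8236 against 7139, 7914 and 7465 in bcCML (-0.15 ± 0.13). Both sets lay apart in each leukaemia, although neither difference passed. The 8 snoRNP genes did not share all of this, since Nop56 and Dkc1 overlapped between the AML groups through mutant AML array 3. Between the leukaemias, 7 of the 8 rose with wild-type donors (87.5%, against 17.7% of all genes), and Nop10 did not pass (adjusted p = 0.0506 in limma). Nop58 was highest, from 1551, 1466 and 1162 in wild-type AML to 2726, 2477 and 2414 in wild-type bcCML (0.87 ± 0.15, adjusted p = 0.00144 in limma). With mutant donors all 8 rose (against 23.2% of all genes), with a median of 1.01.

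Small-subunit factors held both the lowest and the highest AML difference of the whole list. Rrp12, a repeat protein that carries small-subunit precursors through late maturation and export, fell in mutant AML. It read 259.7, 224 and 166 units on the wild-type AML arrays and 77.1, 113 and 95.7 on the mutant ones, and 255, 245 and 297 and 199.8, 257 and 271 on the wild-type and mutant bcCML arrays. Only the mutant AML arrays stood apart, below the other 9. The log2 difference was -1.18 ± 0.21 in AML (2.26-fold lower, adjusted p = 0.0289 in limma) and -0.14 ± 0.21 in bcCML, and the difference between these was 1.04 ± 0.30 (adjusted p = 0.297 in limma). The AML call was lost without wild-type AML array 1 (adjusted p = 0.112 in limma), wild-type AML array 2 (0.0736), mutant AML array 1 (0.0555), mutant AML array 3 (0.0619) or wild-type bcCML array 3 (0.0533). It was also lost with no filter on low values (0.0509) and with a replicate block over all arrays (0.0511). With either the AML arrays alone in the fit, or the replicate number as a block within AML, neither Rrp12 nor Polr1e passed (adjusted p in limma of 0.203 and 0.188 for the first, 0.462 and 0.448 for the second).

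Utp18, a component of the small-subunit processome, had the opposite sign. It read 273, 267 and 326 in wild-type and 402, 339 and 452 in mutant AML, and 418, 442 and 446 in wild-type and 630.1, 921 and 816 in mutant bcCML. The mutant arrays were higher than the wild-type arrays in both leukaemias, with no overlap. The log2 difference was 0.46 ± 0.17 in AML (adjusted p = 0.255 in limma) and 0.84 ± 0.17 in bcCML (adjusted p = 0.138 in limma), and their mean, 0.65 ± 0.12, had an adjusted p of 0.0515 in limma. A second, dim probe set of Utp18 had the opposite sign, with -0.70 in AML and -2.65 in bcCML, where it read 88.3, 33.1 and 28.1 on the wild-type arrays and 15.97, 4.56 and 4.55 on the mutant ones. Utp18 lies on chromosome 11, as Msi2 does, with 12 tested genes between them, and the part of that position in its values was not tested. The other 9 members on that chromosome had 138 or more tested genes between them and Msi2, and all had a negative difference in AML.

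**Figure D4:**
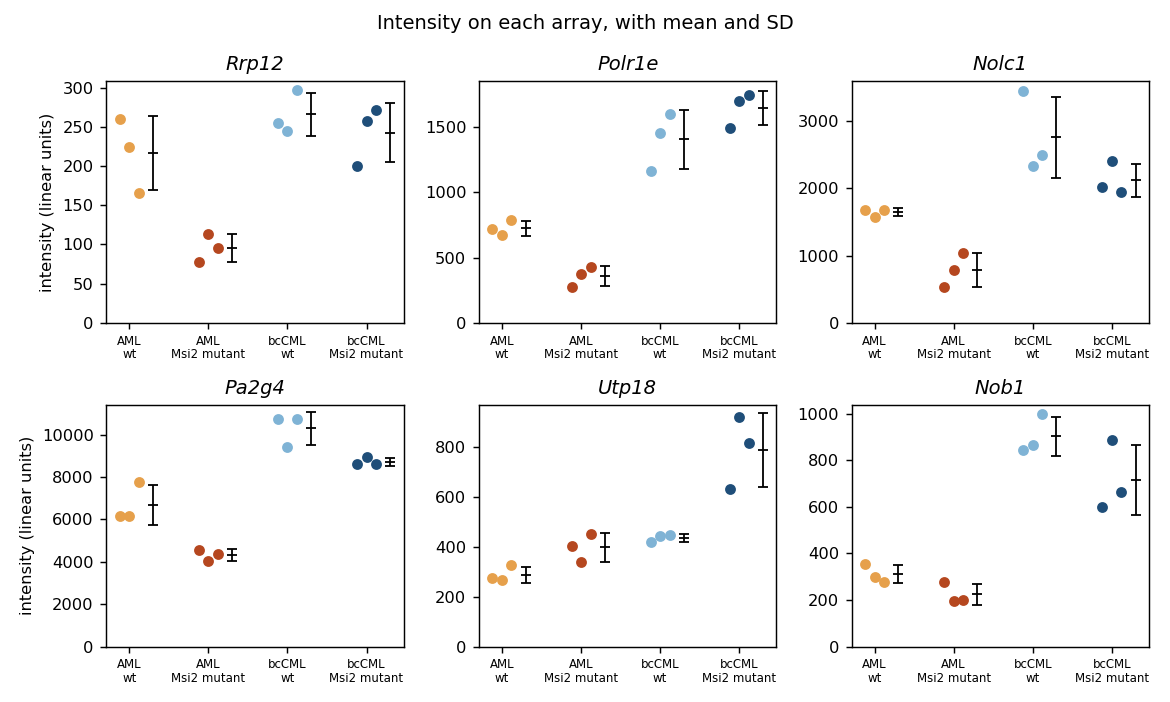
Intensity in linear units on each of 12 arrays (points) with the mean and standard deviation over 3 arrays (bars beside them) for 6 members. Rrp12, Polr1e, Nolc1 and Pa2g4 are lower on all mutant AML arrays than on all wild-type AML arrays, Utp18 is higher on the mutant arrays of both leukaemias, and Nob1 is higher in bcCML than in AML.

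Rrp9, a protein of the U3 snoRNP, read 68.8, 85.3 and 79.0 in wild-type and 50.2, 34.0 and 51.7 in mutant AML, without overlap (-0.80 ± 0.20, adjusted p = 0.0926 in limma). Nop14, a processome scaffold, was lower on all mutant arrays of both leukaemias, with 819, 812 and 787 against 614, 505 and 535 in AML and 1680.1, 1257 and 1349 against 878, 1186 and 1155 in bcCML. Neither of its differences, -0.55 ± 0.16 and -0.42 ± 0.16, passed the test (adjusted p = 0.144 and 0.563 in limma). Of the remaining small-subunit genes, the processome proteins Utp20, Utp15, Heatr1, Wdr43, Wdr75, Noc4l, Imp3 and Imp4, the methyltransferase Emg1, the helicase Ddx10 and the late factors Bysl, Ltv1, Tsr1 and Nob1 had AML differences from -0.65 for Bysl to -0.11 for Ddx10. Bysl, a factor of late small-subunit precursors, was lower on all mutant AML arrays and higher on all mutant bcCML arrays (-0.65 ± 0.24 and 0.21 ± 0.24), but the difference between these, 0.86 ± 0.34, did not pass (adjusted p = 0.467 in limma). A second, dimmer probe set of Bysl had the same signs (-0.34 and 0.26), but its bcCML groups overlapped.

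Between the leukaemias, Nob1 was the member that rose most with wild-type donors. It is the endonuclease that makes the last cut of the small-subunit RNA, and it read 354, 299 and 278 in wild-type AML and 845, 865 and 997 in wild-type bcCML (1.54 ± 0.19, 2.91-fold, adjusted p = 0.000175 in limma). With mutant donors it read 277, 195 and 200.1 and 601, 886 and 663 (1.68 ± 0.19, adjusted p = 7.39e-05 in limma). Utp20, a large processome repeat protein, read 498, 425 and 389.5 in wild-type AML and 937, 924 and 829.6 in wild-type bcCML (1.04 ± 0.16, adjusted p = 0.000604 in limma). In all, 11 of 18 small-subunit genes rose with wild-type donors (61.1%, against 17.7% of all genes) and 18 of 18 with mutant donors (against 23.2%), with medians of 0.57 and 0.95.

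Large-subunit factors had the lowest median of the 5 steps in mutant AML, -0.44, with all 19 tested members below 0, and none passed. Pa2g4, which binds the exit tunnel of the large subunit, read 6136, 6136 and 7747 on wild-type and 4564, 4036 and 4361 on mutant AML arrays, and 10743, 9413 and 10724 and 8618, 8946 and 8602 on wild-type and mutant bcCML arrays. On this probe set the groups did not overlap in either leukaemia, and the mutants were lower in both. The log2 difference was -0.62 ± 0.13 in AML (adjusted p = 0.0528 in limma) and -0.24 ± 0.13 in bcCML (adjusted p = 0.677 in limma). The AML difference passed with no filter on low values (adjusted p = 0.0377 in limma), a pseudocount of 16 (0.0469), the mean of its probe sets (0.0327) or an intensity trend and robust eBayes (0.0154). Its 4 other probe sets gave -0.76 to -0.45 in AML. In bcCML they gave -0.26, -0.23, -0.12 and 0.11, the last with the opposite sign. Gnl3, the nucleolar GTPase also called nucleostemin, read 3685, 3372 and 3649 in wild-type and 1909, 2350.3 and 2848 in mutant AML, with a difference of -0.61 ± 0.15 (adjusted p = 0.0856 in limma). It passed without mutant AML array 3 (adjusted p = 0.0395 in limma). Noc3l, a factor of early large-subunit precursors, had the lowest estimate of the step, -1.03 ± 0.38 (adjusted p = 0.241 in limma), and its mutant AML arrays spread over 43.5, 98.7 and 150.1 units.

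The PeBoW complex, made of Pes1, Bop1 and Wdr12, is needed for processing of the large-subunit RNA, and the estimates of its members were not alike, although genes were not tested against each other. Pes1 read 1783, 1089 and 1126 in wild-type and 855, 819 and 808 in mutant bcCML, a difference of -0.65 ± 0.22 without overlap (adjusted p = 0.468 in limma), and -0.30 ± 0.22 in AML. Wdr12 had -0.44 ± 0.15 in AML and -0.40 ± 0.15 in bcCML, while Bop1 had -0.51 ± 0.15 in AML and 0.15 ± 0.15 in bcCML. In bcCML relative to AML with mutant donors Bop1 rose (0.75 ± 0.15, adjusted p = 0.00261 in limma), and Pes1 (-0.02 ± 0.22) and Wdr12 (0.31 ± 0.15) did not pass (adjusted p = 0.939 and 0.126 in limma). Ebna1bp2, another early large-subunit factor, read 5675, 4432 and 3744 in wild-type and 2858, 3587 and 3030.2 in mutant bcCML (-0.53 ± 0.18, adjusted p = 0.496 in limma). The methyltransferases Nop2, Ftsj3 and Rrp8, the helicases Ddx18, Ddx27 and Ddx56, the GTPase Gnl2 and the factors Rrp1b, Rrs1, Noc2l, Nop16 and Nip7 had AML differences between -0.59 for Nop2 and -0.14 for Ddx18.

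Between the leukaemias with wild-type donors, 9 of 19 large-subunit genes rose (47.4%, against 17.7% of all genes). Gnl3 read 3685, 3372 and 3649 in wild-type AML and 7146, 6679.8 and 7244 in wild-type bcCML (0.98 ± 0.15, adjusted p = 0.000618 in limma). Nip7, which acts in precursor processing, read 1443, 1377 and 1149 and 2452, 2596 and 2472 (0.93 ± 0.15, adjusted p = 0.000817 in limma), though its second probe set did not pass (0.47, adjusted p = 0.0693 in limma). For both genes all bcCML arrays lay above all AML arrays. With mutant donors 15 of 19 rose (78.9%, against 23.2%), Gnl3 most (1.51 ± 0.15, adjusted p = 2.52e-05 in limma).

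Of the multifunctional nucleolar proteins, Ncl (nucleolin) binds precursor RNA and ribosomal DNA, Npm1 (nucleophosmin) is an abundant chaperone, Ddx21 is a helicase of both transcription and processing, and Lyar is a nucleolar growth regulator. Ncl read 5877, 5880.4 and 5913 in wild-type and 5189.7, 4109.8 and 4752 in mutant AML, without overlap (-0.34 ± 0.14, adjusted p = 0.317 in limma), and 10522, 9473 and 10334 and 8398, 11129 and 9009 in wild-type and mutant bcCML, with overlap (-0.10 ± 0.14). Npm1 read 13911, 13859 and 10208 in wild-type AML, 9828, 10191 and 10984 in mutant AML, 19604, 22104 and 21649 in wild-type bcCML and 20414, 22926 and 18993 in mutant bcCML. Its AML groups overlapped through wild-type array 3 (-0.28 ± 0.15), and the leukaemias did not overlap (0.75 ± 0.15 with wild-type donors, adjusted p = 0.00328 in limma). Ncl and Npm1 rose in bcCML relative to AML with wild-type donors (against 17.7% of all genes), and all 4 genes rose with mutant donors (against 23.2%). Lyar had -0.42 ± 0.22 in AML and -0.16 ± 0.22 in bcCML, and Ddx21 -0.28 ± 0.15 and 0.04 ± 0.15, none of them past the threshold.

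Probe sets that measure the same gene gave a second reading for many members. Of 114 single-gene probe sets of the members, 107 passed the filter, and 51 of these, in 36 genes, were not the one used. In AML 50 of the 51 had a negative difference, with a median of -0.44, and 2 had the opposite sign to the probe set used (Ubtf at 0.08 and Utp18). In bcCML 42 were negative and 16 had the opposite sign. Between the leukaemias with wild-type donors 50 of 51 were positive, with a median of 0.62. With mutant donors 47 were positive, with a median of 0.92, and 4 had the opposite sign, in Polr1a, Ubtf, Utp18 and Ddx27. There the second, dim probe sets of Utp18 and Ddx27 gave -1.17 and -0.07, where those used gave 0.98 and 0.70. Probe sets of a gene were read on the same arrays, so they are a second reading and not further samples. Rrp12, Nob1 and Gnl3 had 1 probe set each.

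**Figure D5:**
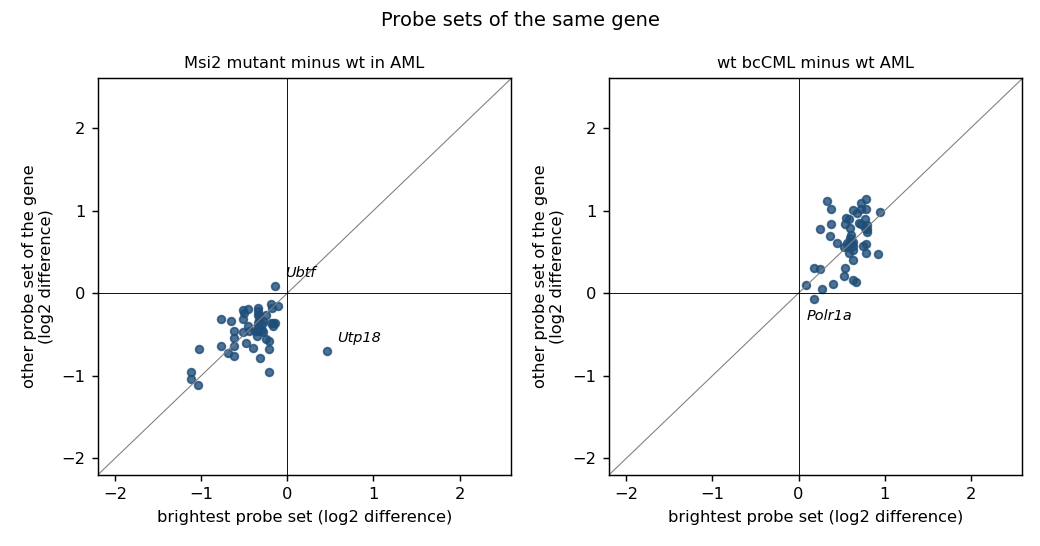
Log2 difference of the probe set used for each member (horizontal axis) against that of each other passing probe set of the same gene (vertical axis), 51 points in 36 genes, with the line of equality in grey; left, Msi2 mutant minus wild-type in AML, right, wild-type bcCML minus wild-type AML. In AML all but Ubtf and Utp18 have the same sign on both axes, and between the leukaemias all but Polr1a do.

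Of the other genes of the pathway, 103 were listed, also with earlier results of these data known, and 101 were tested. In AML 91 had a negative difference (90.1%, against 57.1% of all genes) and the median was -0.27 against -0.05. At an unadjusted p under 0.05 in limma, 29 were lower (28.7%, against 10% of all genes) and 0 higher. After adjustment a single gene fell, 0.99% of the 101 where 1.14% of all genes were called lower, so the count of adjusted calls was at the background. That gene is Rcl1, which encodes a small-subunit processome protein involved in early cleavage of the precursor. Rcl1 read 420.3, 336 and 433 on wild-type and 113, 166 and 187 on mutant AML arrays (-1.37 ± 0.21, adjusted p = 0.0174 in limma), and 996, 730.4 and 806 and 779, 877 and 674 on wild-type and mutant bcCML arrays (-0.12 ± 0.21). The AML groups did not overlap, and the bcCML groups did. Without mutant AML array 1 its AML difference was -1.16 ± 0.19 (adjusted p = 0.0221 in limma). In bcCML 73 of the 101 were negative (72.3%, against 54% of all genes) and 0 passed in limma. At an unadjusted p under 0.05 in limma, 7 were lower and 1 higher in bcCML (7.92%, against 8.32% of all genes), which is at the background. Between the leukaemias 35 rose (34.7%, against 17.7% of all genes) and 4 fell (3.96%, against 19.3%) with wild-type donors, with a median of 0.30 against 0.00. With mutant donors 53 rose (52.5%, against 23.2%) and 5 fell (4.95%, against 21.9%), with a median of 0.50 against 0.03. The 4 that fell with wild-type donors were Taf1b and Ttf1, which act on ribosomal DNA transcription, and the small-subunit factors Krr1 and Rrp36, while 0 of the 56 members fell.

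The promoters of the members were searched for 4 short motifs, because the members moved together between the leukaemias. RefSeq windows of 300 bases (GRCm38.p6, 250 before and 50 after a start site) were held for 51 of the 57 members, 61 windows in all, and Fbl, Rrp12, Bop1, Rrs1, Gnl2 and Npm1 had none. The E-box CACGTG, a palindrome that Myc and related factors can bind, was in 11 of 61 member windows (18%), against 7.15% of all 32851 windows and 8.72% of windows of genes on the array. In the 250 bases before the start alone, it was in 5 of 61 (8.2%) against 6.02% and 7.38%, so 6 of the 11 windows had it only after the start. The GC box GGGCGG, on either strand, was in 73.8% of member windows against 35.7% of all, and against 52.3% of windows of genes on the array. CCAAT was in 32.8% against 37.4% of all and 37.4% of windows of genes on the array. TATAAA was in 3.28% against 13.6% and 9.77%, each motif on either strand. Genes on the array were counted here whether or not they passed the filter, whereas the members analysed all passed it. A match of letters is a description and not a site.

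A set of 6 E-box stretches is printed, with the motif in capitals: that of Utp18, the 1 member higher in both mutants, of Pes1, the 1 below 0 between the leukaemias with mutant donors, and of Tsr1, Nop2, Dhx33 and Imp4, whose mutant bcCML means lay above the wild-type ones. They are 30 bases each from GRCm38.p6, at chr11:93885769-93885798 (minus strand) for Utp18, chr11:3963965-3963994 (plus) for Pes1, chr11:74898092-74898121 (plus) for Tsr1, chr6:125131811-125131840 (plus) for Nop2, chr11:71004450-71004479 (minus) for Dhx33 and chr1:34439696-34439725 (plus) for Imp4. Those of Pes1 and Tsr1 lie after the start site, at bases 3 and 25, and the others before it. The choice rests on the probe set used for each gene. The bcCML differences of Tsr1, Nop2, Dhx33 and Imp4 were smaller than their SE, and none passed the test. The other passing probe sets of Tsr1, Dhx33 and Imp4 had the opposite sign in bcCML, and that of Utp18 had it in both leukaemias.
Utp18: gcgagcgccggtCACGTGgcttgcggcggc
Pes1: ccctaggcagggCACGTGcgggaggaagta
Tsr1: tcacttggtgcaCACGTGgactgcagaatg
Nop2: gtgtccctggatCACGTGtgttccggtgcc
Dhx33: ccagcacgcctgCACGTGgcgagaaagggg
Imp4: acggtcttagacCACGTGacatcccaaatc
Myc itself read 864, 636 and 850.3 in wild-type AML, 406, 450.1 and 1351 in mutant AML, 1830.0, 1113 and 1129 in wild-type bcCML and 1089, 1094 and 519 in mutant bcCML. Mutant AML array 3 was the highest of the AML arrays for Myc, and no comparison of Myc passed the test (adjusted p in limma of 0.862 in AML, 0.776 in bcCML, 0.221 and 0.468 between the leukaemias). The part of Myc in the members' levels was not tested.

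Markers of other cell types moved with several of these results. Of the 9 neutrophil markers, 1 rose and 1 fell in mutant AML. In mutant bcCML 0 were called, with 5 at an unadjusted p under 0.05 in limma. Their median Msi2 difference was 0.56 in AML and -1.11 in bcCML. The test of whether that difference varied with the leukaemia called 0 of the 9, with 8 at an unadjusted p under 0.05 in limma. Its median was -2.51, so more negative in bcCML. Relative to AML, 8 of 9 were lower in bcCML with wild-type donors and 9 of 9 with mutant donors. The 7 monocyte markers summed to 8584 to 12283 and 3156 to 21388 in wild-type and mutant AML, which overlap, and to 373 to 958 over the bcCML arrays. Erythroid markers summed to 30.01 to 40.6 over the AML arrays and 427 to 2164 over the bcCML arrays, megakaryocyte markers to 29.4 to 41.1 in wild-type AML, 46.1 to 211 in mutant AML and 3852 to 11388 over the bcCML arrays, the markers of mast cells, basophils and eosinophils to 969.55 to 6714 over the AML arrays and 16317 to 24749.5 over the bcCML arrays, and B cell markers to 875 to 2225 and 59.8 to 244. Their part in the members' differences was not tested.

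Genes of cycling cells overlapped between all groups. The 11 cycling-cell genes, among them Mki67 and Top2a, summed to 25101 to 34077 in wild-type AML, 22993 to 32172 in mutant AML, 23085 to 28668 in wild-type bcCML and 23178 to 29037 in mutant bcCML. Their median difference was -0.12 in AML with 0 called in limma and 1 at an unadjusted p under 0.05. Between the leukaemias it was -0.36 with wild-type donors, with 1 lower in bcCML, and -0.05 with mutant donors, with 0 called and 0 at an unadjusted p under 0.05 in limma.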

How the data were processed

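Each of 12 samples was read on 1 array. The deposited values are linear intensity per probe set. Per the submitters' processing notes the authors used GCRMA, which corrects background, normalises between arrays and summarises probes, in a version not given in the sources used here. The lowest value is 4.49 units, so dim probe sets are pressed to a floor. Log2 of the deposited intensity was taken without a pseudocount. Probe sets above log2 of 4 on at least 3 arrays were kept, and each gene was taken at its brightest probe set over 12 arrays. The 4 means were modelled by limma 3.58.1 under R 4.3.3 (lmFit, eBayes, two-sided), a step tested on simulated data, with adjustment over the 10817 genes. The members and the gene lists were chosen with earlier results of these data known, so no test was made over the list. Named by rule were members past the threshold in an Msi2 comparison, the 2 smallest p per step in each leukaemia's Msi2 comparison and between wild-type leukaemias, members whose probe sets disagree, Msi2, Myc and pathway genes past the threshold. Other members are named for a range, a complex or an order, after their values were seen. The promoters were searched over the whole window first and then before the start alone. Deviations of same-numbered arrays correlated at 0.396, 0.364 and 0.278 in bcCML and at -0.055, -0.121 and -0.030 in AML. The main model had no replicate block, so the bcCML differences, errors and p-values in the Results are unpaired. A replicate block was used only as an alternative. Precision is limited by having 3 arrays in a group, and no 2 arrays had the same value above the floor for over 14.7% of probe sets. Alternatives were the filter, pseudocount, normalisation, probe set choice, samples in the fit, spread model, replicate block and leaving out each array.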

Additional observations from a re-analysis of the deposited data

How the results depend on the processing

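The medians over the members kept their sign and moved by less than the replicate SD of 0.11 under all alternatives in all 6 comparisons, leave-one-out included (-0.45 to -0.33 in AML, -0.19 to -0.03 in bcCML, -0.28 to -0.21 for the shared effect, 0.23 to 0.39 for their difference, 0.50 to 0.62 and 0.77 to 0.95 between the leukaemias with wild-type and mutant donors). That SD is of single-array means over the members, and not the error of a median difference. It is no smaller in size than the bcCML median of -0.10, so it cannot show that this median is stable. The count of members called in AML, 2, did not hold. It was 4 with a pseudocount of 16, 4 with the mean of a gene's probe sets, 5 with an intensity trend and robust eBayes, 1 with arrays centred on their median, 0 with AML arrays only, 1 with a replicate block over all arrays and 0 with a replicate block within AML, and from 0 (without wild-type AML array 1) to 3 (without mutant AML array 3) with an array left out. With no filter on low values it was 2 again, but Pa2g4 stood in place of Rrp12. The shared effect was called for 0 members, and for 1 with the pseudocount, 1 with quantile normalisation and 2 with trend and robust eBayes. With an array left out, counts were 0 in bcCML, for the shared effect and for the difference between leukaemias, 24 to 34 between the wild-type leukaemias and 42 to 50 between the mutant ones. In bcCML, where same-numbered arrays correlated, the replicate block left the count at 0. A replicate block over all arrays gave 28 members between the wild-type leukaemias and 48 between the mutant ones. Of single-gene results, 5 turned sign, all in bcCML and none of them called: Utp18 (-0.91 with the mean of probe sets, -2.65 on its second probe set), Ncl (0.064 with the mean of probe sets), Nolc1 (0.13 on its second probe set) and Lyar (-0.37 to 0.017 with an array left out, highest without mutant bcCML array 1). Without an array, 9 single-gene calls were lost and 2 gained, and under other settings 8 were lost and 8 gained. The cause was not tested. Dim probe sets, such as the second of Utp18, lie near the floor, so their changes are only partly measured.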
